A study of Mus musculus with 40 samples.

Results

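DNA replication genes were followed across the 5 tissues: 39 genes of the 18024 in the deposited table. They were taken by symbol from a list of replication licensing, fork and nucleotide synthesis genes. The rule used no measured value, but earlier results of these data were known when the list was chosen. All 39 were found. They were grouped by role into 10 licensing genes (Orc1, Orc6, Cdc6, Cdt1 and Mcm2 to Mcm7), 6 helicase activation genes (Mcm10, Cdc45 and Gins1 to Gins4), 9 polymerase and primase genes (Pola1, Pola2, Prim1, Prim2, Pold1, Pold2, Pold3, Pole and Pole2), 6 clamp and clamp-loader genes (Pcna and Rfc1 to Rfc5), 3 genes of the single-strand binding complex (Rpa1, Rpa2 and Rpa3), 2 genes that mature Okazaki fragments (Fen1 and Lig1) and 3 nucleotide synthesis genes (Rrm1, Rrm2 and Tyms). Every member passed the filter on low values in every tissue.

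The series sequenced RNA from pancreas, kidney, ovary, heart and small intestine of 60-day-old C57BL/6J mice, 24 h after p53 was activated. In each tissue 3 libraries came from Tg mice (Mdm2+/- Cag-CreERTg) and 5 from FMTg mice (Mdm2FM/- Cag-CreERTg). Both groups therefore carried the Cre transgene, driven by a promoter active in most cell types, and 1 null allele of Mdm2, the ubiquitin ligase that restrains p53, so the Tg mice are not wild type. The 40 libraries came from 13 mice. All Tg libraries came from the same 3 mice and the FMTg libraries from 10, so comparisons in different tissues share Tg animals.

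DNA is copied once per cell cycle. In G1 the origin recognition complex, Cdc6 and Cdt1 load the Mcm helicase on DNA. At the start of S phase Mcm10, Cdc45 and the GINS complex turn the helicase on, primase and the polymerases follow, and replication factor C loads the sliding clamp Pcna. E2F transcription factors drive many of these genes in proliferating cells, and p53 is known to lower them through p21 (Cdkn1a) and the DREAM repressor complex, while tissues with few dividing cells hold little of their mRNA.

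Promoter sequences of 4 members are shown because most members ran in a similar order between tissues and E2F sites are the best known shared element of this gene group. A part of these sites in that order was not tested. RefSeq promoters (build GRCm38.p6, 250 bases before to 50 after the start site) were found for 32 of the 39 members, and those not matched were Rfc2, Mcm4, Gins4, Pole, Gins2, Prim2 and Gins1. Capitals mark matches on either strand to the E2F words TTTCGCGC and TTTGGCGC and to CCAAT. Mcm5, with 2 E2F matches and 3 CCAAT matches, lies at chr8:75109259-75109558 on the plus strand. Mcm6, with 3 and 2, lies at chr1:128359656-128359955 on the minus strand. Pcna (chr2:132253131-132253430, minus strand) and Rrm2 (chr12:24708004-24708303, plus strand) each hold 1 CCAAT match. In Mcm5 and in Mcm6, 1 pair of E2F matches overlaps in the long run of capitals.
Mcm5: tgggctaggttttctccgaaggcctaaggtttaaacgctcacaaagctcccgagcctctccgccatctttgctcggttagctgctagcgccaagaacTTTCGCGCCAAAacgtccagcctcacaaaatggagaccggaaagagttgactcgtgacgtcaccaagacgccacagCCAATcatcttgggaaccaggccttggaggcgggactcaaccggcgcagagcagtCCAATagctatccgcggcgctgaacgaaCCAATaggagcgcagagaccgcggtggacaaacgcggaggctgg
Mcm6: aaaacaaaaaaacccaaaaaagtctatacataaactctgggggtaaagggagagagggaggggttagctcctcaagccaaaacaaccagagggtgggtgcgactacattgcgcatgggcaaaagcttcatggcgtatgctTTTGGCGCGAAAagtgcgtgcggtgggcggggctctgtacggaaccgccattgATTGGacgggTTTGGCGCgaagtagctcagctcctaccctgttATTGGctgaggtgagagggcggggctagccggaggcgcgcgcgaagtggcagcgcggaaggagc
Pcna: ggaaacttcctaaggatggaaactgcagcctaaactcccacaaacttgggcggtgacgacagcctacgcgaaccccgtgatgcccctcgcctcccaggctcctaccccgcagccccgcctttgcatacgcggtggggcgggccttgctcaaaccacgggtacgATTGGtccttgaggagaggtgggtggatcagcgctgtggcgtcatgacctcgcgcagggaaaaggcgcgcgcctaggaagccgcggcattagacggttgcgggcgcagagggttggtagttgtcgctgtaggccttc
Rrm2: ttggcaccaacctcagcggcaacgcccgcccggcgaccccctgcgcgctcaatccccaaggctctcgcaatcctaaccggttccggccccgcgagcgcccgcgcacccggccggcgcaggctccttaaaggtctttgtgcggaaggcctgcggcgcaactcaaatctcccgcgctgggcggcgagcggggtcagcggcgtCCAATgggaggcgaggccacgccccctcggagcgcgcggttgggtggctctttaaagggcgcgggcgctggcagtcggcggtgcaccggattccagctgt
At least 1 of the 2 E2F words was found in 10 of 32 member promoters (31.3%), against 0.929% of the 27025 genes with a promoter in the table. These were Cdt1, Lig1, Mcm3, Mcm5, Mcm6, Mcm7, Orc1, Pola1, Pole2 and Rfc3. Only Mcm5 and Mcm6, which are printed above, held both words, so they are not typical of the members. CCAAT was in 21 of 32 (65.6%, against 41.1% of all genes). TTTGAA, the core of the cell-cycle homology region bound by the DREAM complex, was in 5 (15.6%, against 20.2%). These are letter matches in a fixed window and not measured binding sites.

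Depth was 7.16 to 29.0 M (mega) reads a library, and some libraries stood apart. The FMTg replicates 4 and 5 of every tissue, from mice with low identification numbers, showed fewer genes with reads at an equal depth of 7.16 M reads. The pancreas pair had 12004 and 13770 genes, and the other 6 pancreas libraries 15009 to 16071. In the other 4 tissues they had 14878 to 16141 and the other libraries 15739 to 17002, with no overlap inside a tissue. Reads of 4 Y-linked genes (323 to 6907, against 0 to 38 in the other 31 libraries) marked 9 FMTg libraries as male: replicates 4 and 5 of pancreas, kidney, heart and small intestine, and FMTg Pancreas replicate 1. No Tg library was male, so sex and group cannot be told apart in those libraries, and results are given without replicates 4 and 5 where this changes them. In Tg Ovary replicate 1, 10 genes of pancreatic acinar cells held 20.4% of all reads, while the remaining ovary libraries had 0.000858 to 4.24%. Markers of the labelled tissue were higher in it than in the other tissues for every marker tested (10 acinar, 7 proximal tubule, 7 granulosa, 8 oocyte, 7 cardiomyocyte and 8 enterocyte genes, limma adjusted p below 0.05). Mdm2 was higher in FMTg than in Tg in every tissue (log2 0.77 to 2.00), which does not check the deletion because Mdm2 is itself a p53 target. Cdkn1a, the p53 target that codes for p21, was called higher in the FMTg kidney (3.02 ± 0.24, adjusted p = 5.04e-04, limma) and pancreas (1.77 ± 0.29, adjusted p = 0.0337), and its differences in small intestine, ovary and heart were 2.0, 1.14 and 0.79 (adjusted p of 0.990, 0.749 and 0.641).

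Before the genotypes were compared, the level of each member was compared between tissues within the Tg mice. Small intestine and ovary held the highest levels of most replication genes, and kidney and heart the lowest. The small intestine was highest for 27 members, the ovary for 7, the heart for 3 (Gins4, Rpa1 and Rpa2), the kidney for 1 (Tyms) and the pancreas for 1 (Rfc1). The heart was lowest for 19, the kidney for 16 and the pancreas for 4. The log2 distance between the highest and the lowest tissue mean ran from 0.49 (Gins4) to 4.19 (Mcm10).

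**Figure D1:**
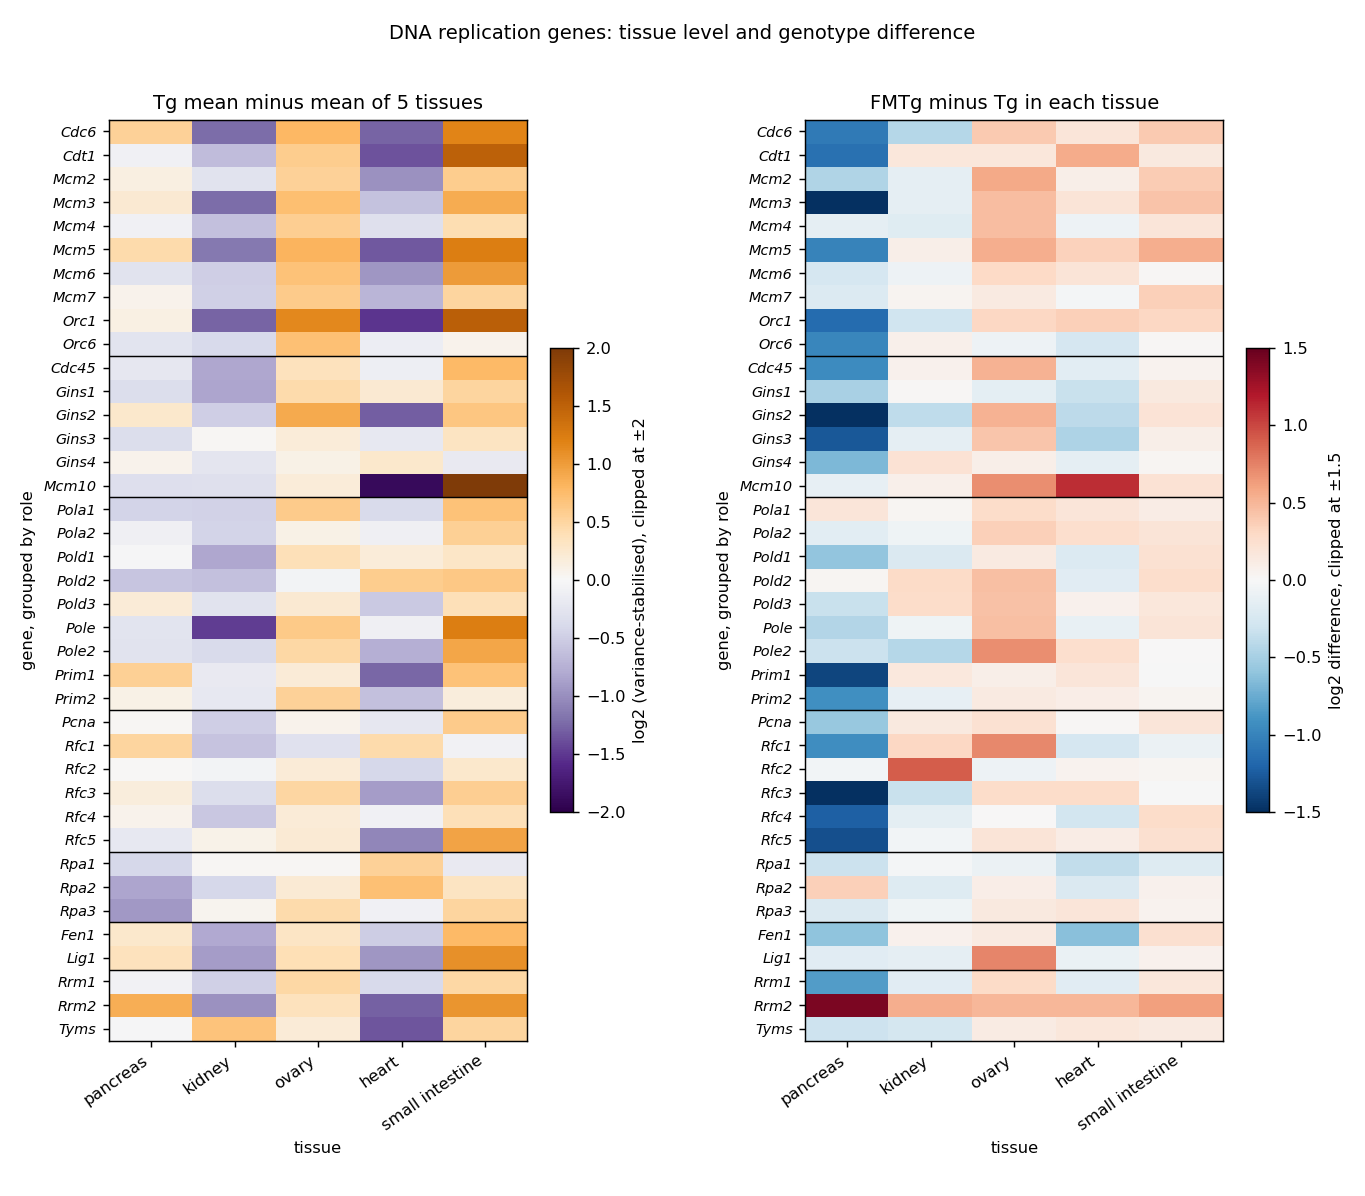
Mean log2 value of each replication gene in the Tg libraries of 5 tissues minus the mean of those 5 tissue means (left, n = 3 a tissue, clipped at 2), and FMTg minus Tg log2 difference in each tissue (right, 5 FMTg and 3 Tg libraries, clipped at 1.5), with rows grouped by role. On the left most rows are high in small intestine and ovary and low in kidney and heart, and on the right the pancreas column is mostly negative, the ovary column mostly positive, and Rfc2 stands out in the kidney.

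In the normalised reads of single libraries these contrasts were wide. A normalised read is a recovered read divided by the library's size factor. For Mcm10, which joins the helicase as it is activated, the 3 Tg small intestine libraries held 254, 417 and 332, the ovary 45.2, 109 and 69.4, the kidney 36.9, 49.1 and 63.0, the pancreas 38.99, 56.7 and 49.0 and the heart 19.7, 7.08 and 13.2. Every small intestine library lay above every other Tg library, and the heart libraries lay below all others. Orc1, the ATP-binding subunit of the origin recognition complex, was at 64.7, 43.0 and 54.3 in the small intestine, 42.7, 44.8 and 32.6 in the ovary, 14.4, 7.74 and 35.03 in the pancreas, 3.92, 3.96 and 2.36 in the kidney and 9.37, 0 and 2.84 in the heart. Neighbours in this order overlapped except pancreas and kidney, and in kidney and heart the gene was at 10 reads or fewer a library. Pole, the catalytic subunit of the leading-strand polymerase epsilon, was at 298, 373 and 373 in the small intestine, 173, 305 and 211 in the ovary, 127, 136 and 139 in the heart, 129, 90.3 and 145 in the pancreas and 47.9, 55.5 and 41.7 in the kidney, so the 3 kidney libraries were below every other library.

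For Rfc5, a small subunit of the clamp loader, the values were 256, 312 and 314 in the small intestine, 158, 199 and 169 in the ovary, 153, 169 and 158 in the kidney, 115, 159.9 and 119 in the pancreas and 69.4, 65.7 and 71.9 in the heart. Only the small intestine above and the heart below were clear of the other tissues. Lig1, the ligase that joins Okazaki fragments, was at 282, 316 and 361 in the small intestine, 147, 287 and 175 in the ovary, 179, 181 and 210.2 in the pancreas, 112, 47.5 and 70.9 in the heart and 79.3, 76.9 and 70.8 in the kidney. Small intestine and ovary overlapped in 1 library. Rrm2, the regulated small subunit of ribonucleotide reductase, was at 179, 286 and 370.5 in the small intestine, 144, 268 and 322 in the pancreas, 162, 180.0 and 142 in the ovary, 61.2, 56.3 and 63.0 in the kidney and 59.1, 45.5 and 38.8 in the heart. Pancreas and small intestine overlapped for Rrm2. Rpa2, a subunit of the single-strand binding complex RPA, ran in another order, with heart libraries at 199, 264 and 240.2, then 162, 186 and 182 in the small intestine, 132, 194 and 168 in the ovary, 92.6, 101 and 119 in the kidney and 65.7, 67.0 and 95.8 in the pancreas. Its 3 heart libraries were the highest.

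**Figure D2:**
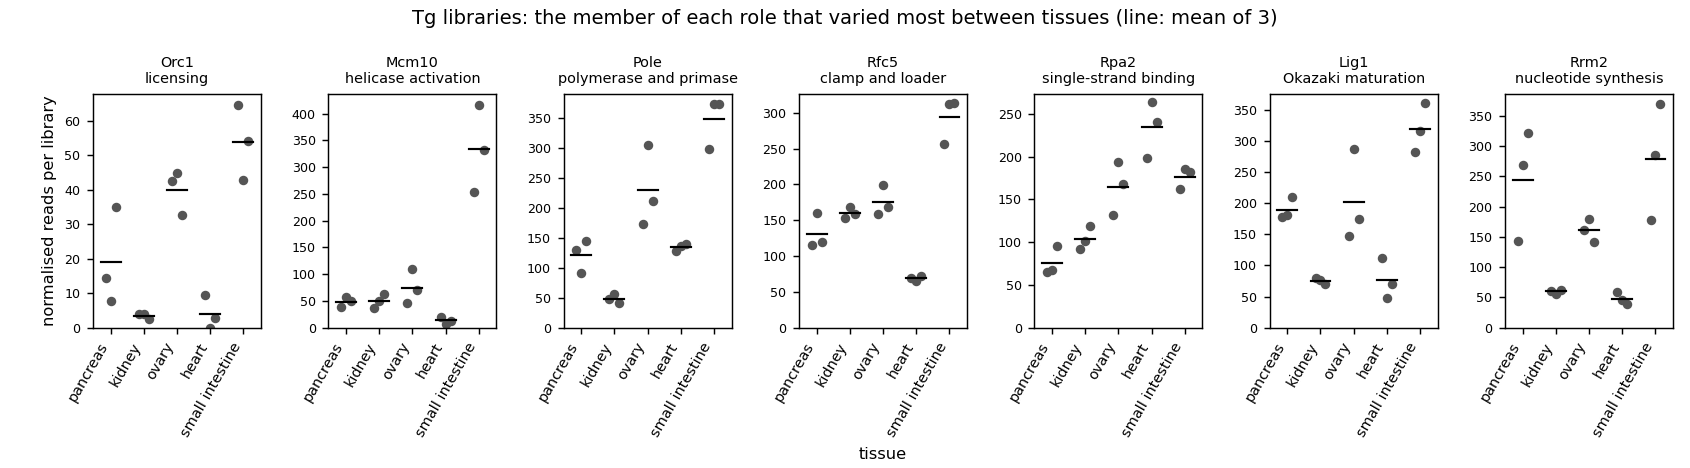
Normalised reads in each Tg library (points) with the mean of 3 (line) for the gene of each role whose tissue means were farthest apart, in 5 tissues and on separate linear axes from 0. Small intestine is highest in all panels but that of Rpa2, whose heart libraries run from 199 to 264.

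Each tissue was then tested against the mean of the other 4 in the Tg libraries with limma (15 libraries, Benjamini-Hochberg adjustment over 16251 genes). In the small intestine 33 of 39 members were higher and 1, Rpa1, was lower (−0.22 ± 0.08, SE, adjusted p = 0.0313), while 29.8% of all genes tested were higher and 27% lower. In the ovary 23 were higher and 1, Rfc1, lower (−0.35 ± 0.13, adjusted p = 0.0318), against 30.1% and 22.2% of all genes. In the kidney 1 member, Tyms, was higher (0.85 ± 0.15, adjusted p = 3.34e-04) and 28 were lower, against 25.6% and 32.1%. In the heart 5 were higher and 25 lower, against 28.1% and 31.6%. In the pancreas 7 were higher and 5 lower, against 22.7% and 38.7%. The median log2 differences of the 39 genes were 0.72 in the small intestine, 0.50 in the ovary, −0.03 in the pancreas, −0.60 in the kidney and −0.64 in the heart, and those of all genes lay between −0.23 and 0.05.

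The roles differed in how uniformly they followed this order. All 10 licensing genes were higher in the ovary and 9 in the small intestine, all but Orc6, and all 10 were lower in the kidney and 9 in the heart. Cdt1, which loads the Mcm helicase together with Cdc6, stood 1.88 ± 0.20 higher in the small intestine (adjusted p = 7.03e-06) and 1.71 lower in the heart (−1.71 ± 0.20, adjusted p = 1.07e-05). Mcm5, a helicase subunit, stood at 1.53 ± 0.16 in the small intestine (adjusted p = 5.96e-06) and −1.44 ± 0.16 in the kidney (adjusted p = 9.67e-06). Of the helicase activation genes 4 were higher in the small intestine, led by Mcm10 (2.89 ± 0.27, adjusted p = 2.69e-06), and Gins4 was higher in the heart (0.31 ± 0.11, adjusted p = 0.0259) and lower in the kidney.

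Polymerase and primase genes were higher in the small intestine for 8 of 9 members, all but Prim2, and in the ovary for 6. Pold2, a regulatory subunit of polymerase delta, was higher in the heart as well (0.74 ± 0.13, adjusted p = 3.11e-04) and lower in the pancreas (−0.71 ± 0.13). Of the clamp and loader genes, Pcna was higher in the small intestine (0.76 ± 0.08, adjusted p = 7.82e-06), and Rfc1, the large subunit of the loader, was higher in pancreas (0.63 ± 0.13) and heart (0.56 ± 0.13) and lower in kidney and ovary. Of the RPA subunits, Rpa1 (0.67 ± 0.08, adjusted p = 1.24e-05) and Rpa2 (0.89 ± 0.15, adjusted p = 2.16e-04) were higher in the heart, as were Gins4, Pold2 and Rfc1, while Rpa3 was at −0.11 ± 0.22 there. All 3 RPA subunits were lower in the pancreas. RPA also serves in DNA repair. Fen1, the flap nuclease, and Lig1 were higher in the small intestine (0.96 ± 0.13 and 1.36 ± 0.22) and lower in kidney and heart. Tyms, thymidylate synthase, was lower in the heart (−1.70 ± 0.15, adjusted p = 9.67e-07), while Rrm2 was higher in pancreas (1.08 ± 0.24, adjusted p = 0.00168) and small intestine (1.33 ± 0.24, adjusted p = 3.88e-04). Per kb of exon, Pcna was the most abundant member in each Tg tissue, from 159 ± 17 normalised reads per kb in the kidney to 342 ± 34 in the small intestine (SD, n = 3), and Orc1 was among the 2 lowest in each.

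These contrasts were read against the scaling of the libraries. With reads scaled to the library total in place of the deposited size factors, the median of all genes moved from −0.23 to −0.93 in the pancreas, from −0.10 to 0.14 in the kidney and from 0.05 to 0.50 in the ovary. The members called higher and lower became 0 and 32 in the pancreas, against 5.85% and 76.5% of all genes. They became 1 and 12 in the kidney (33.5% and 20.4% of all genes) and 4 and 22 in the heart (22.6% and 30.7%). In the ovary they became 36 and 0 (55.5% and 8.58%), and in the small intestine 32 and 0 (30.2% and 18.8%). The number of members above the median of all genes hardly moved: it was 25 with either scaling in the pancreas, 6 with either in the kidney, 7 and 8 in the heart, 36 and 37 in the ovary and 36 with either in the small intestine. The counts also depended on which mouse was left out. Without Tg replicate 2 and without Tg replicate 3, the members higher in the ovary were 7 and 12. Those lower in the kidney were 17 and 16, and those higher in the pancreas 1 and 2. Without Tg replicate 1 these counts stayed closer to those with all Tg mice. Each of these fits had fewer Tg libraries in every tissue. The share of all genes called in them is not given, so a fall particular to the members cannot be told from fewer calls among all genes.

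In bulk tissue, fewer dividing cells and less of these RNAs per cell cannot be told apart. The mitosis genes, 23 genes of the spindle and of chromosome segregation, were also high in small intestine and ovary and low in heart and kidney, with wider differences and with the kidney lowest: 23 of 23 were higher in the small intestine (median log2 2.58), 18 in the ovary (1.28), 20 were lower in the heart (−1.54) and 23 in the kidney (−2.0). Their part in the result was not tested. A list of 44 other replication genes had 30 higher and 2 lower in the small intestine and 5 higher and 28 lower in the heart. Of 12 E2F and G1/S regulators 10 were higher in the small intestine and 10 lower in the kidney. In the FMTg libraries the small intestine and ovary were again high, with 29 members higher and 0 lower in the small intestine (25% and 21.1% of all genes) and 22 and 0 in the ovary (24.2% and 17%). The FMTg heart had 1 higher and 15 lower (22.9% and 23.6%), the kidney 1 and 19 (21.1% and 27.5%) and the pancreas 1 and 22 (16.3% and 33.1%), which includes the 2 pancreas libraries that stood apart.

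The question of the series, what activated p53 changed in each tissue, was then asked of the same genes. Replication genes showed no shared fall in FMTg mice that held in every tissue, and 1 member in 1 tissue passed the test. Limma was fitted in each tissue to 5 FMTg and 3 Tg libraries. In the kidney 1 of 39 members was called, Rfc2, where 0.616% of 15415 genes were called. No member was called in the pancreas (0.446% of all genes), the ovary (0% of all genes), the heart (0.019%) or the small intestine (0%). At an unadjusted p below 0.05 (limma) there were 1 member in the pancreas (Rrm2) and 2 in the kidney (Rfc2 and Rrm2). There were 1 in the heart (Mcm10), 6 in the ovary and 0 in the small intestine, and all were higher in FMTg. Of all genes at that threshold, 741 were higher and 544 lower in the pancreas (15262 tested) and 674 and 608 in the kidney (15415). They were 730 and 319 in the ovary (16486) and 516 and 482 in the heart (15769). Voom on recovered reads called the same numbers of members in each tissue, 1 in the kidney and 0 in the others.

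Rfc2, a small subunit of the clamp loader (ENSMUSG00000023104.9, chr5:134581366-134601805 on the plus strand in GRCm38), was higher in the FMTg kidney. Its Tg kidney libraries held 337, 316 and 357 normalised reads and its FMTg kidney libraries 649, 612, 604, 644 and 683. Every FMTg kidney library lay far above every Tg library, in males (replicates 4 and 5) and females (replicates 1 to 3) alike. The difference was 0.91 ± 0.09 on the log2 scale (SE, n = 5 FMTg and 3 Tg), a 1.88-fold rise, with a limma adjusted p of 0.00197. It stayed called under every alternative, with differences of 0.80 to 0.96 and adjusted p of 1.83e-07 to 0.0237. The exact permutation p over the 56 divisions of 8 libraries was 0.0179, the smallest they can give.

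In the other tissues Rfc2 did not follow. The Tg values were 322, 330.1 and 416 in the pancreas, 412, 404 and 448 in the small intestine, 398, 406 and 408 in the ovary and 248, 257 and 279.9 in the heart. The FMTg values were 345, 348, 451, 444 and 200.5 in the pancreas, 409, 471, 421, 433 and 423 in the small intestine, 477, 406, 417, 294 and 346 in the ovary and 265, 310.4, 279, 292 and 221 in the heart. The groups overlapped in all 4, with differences from −0.08 ± 0.17 (ovary) to 0.06 ± 0.16 (heart). A model of all 40 libraries tested whether the genotype effect differed between tissues (F test, 16185 genes, 0.111% called), and Rfc2 was the single member called (F = 16.05, adjusted p = 6.15e-04). That call was lost without library weights (adjusted p = 0.0737) and without Tg replicate 2 (adjusted p = 0.0750). In simulated reads, drawn without a shared effect of the mouse, this F test called more genes than its adjusted p states. Lat2, an adaptor gene of immune cells, overlaps Rfc2 on the opposite strand and strand was not stated in the sources used here. Lat2 held 46.3, 34.9 and 35.4 normalised reads in the Tg kidney and 42.4, 37.3, 35.7, 15.3 and 24.8 in the FMTg kidney, so its own reads were few and not higher. The other clamp and loader genes showed no such rise in the kidney, with differences between −0.33 (Rfc3) and 0.31 (Rfc1).

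Rrm2 had a higher FMTg mean in all 5 tissues, which among the members was otherwise seen only for Pola1 (0.03 to 0.27). In the pancreas the Tg libraries held 144, 268 and 322 normalised reads and the FMTg libraries 755, 557, 493, 1115 and 427. The groups did not overlap, and the difference was 1.42 ± 0.36 (adjusted p = 0.217, limma), with an exact permutation p of 0.0179. In the kidney the FMTg libraries held 91.5, 111, 107, 70.8 and 77.6 against 61.2, 56.3 and 63.0, again without overlap (0.54 ± 0.18, adjusted p = 0.518). Library weights gave adjusted p of 0.0150 in the pancreas and 0.0299 in the kidney, which would be called. Those weights also called more of all genes. In the pancreas 2.82% were higher and 0.898% lower, and in the kidney 1.25% and 0.123%.

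In the ovary the Rrm2 values were 272, 263, 295, 159.9 and 185 in FMTg and 162, 180.0 and 142 in Tg (0.49 ± 0.24, adjusted p = 0.808), in the heart 55.4, 113, 44.3, 90.9 and 61.9 and 59.1, 45.5 and 38.8 (0.50 ± 0.34, adjusted p = 0.762), and in the small intestine 331, 246, 398, 649.8 and 568 and 179, 286 and 370.5 (0.62 ± 0.35, adjusted p = 0.990). The groups overlapped in these 3 tissues. With library weights the small intestine difference was −0.038, and without FMTg replicates 4 and 5 it was 0.25. The mean difference over the 5 tissues was 0.70 ± 0.21 in the model of all libraries (adjusted p = 0.192; 0 of 39 members and 0.612% of 16185 genes called). It passed without FMTg replicates 4 and 5 (0.70 ± 0.14, adjusted p = 0.00475). It also passed with no mouse block (adjusted p = 0.00284), but that fit treats tissues of the same mouse as independent. All Tg libraries came from the same 3 mice, so its p is too small where their tissues vary together. The share of all genes called in these fits is not given. Rfc2 then passed too in the fit without replicates 4 and 5 (0.24 ± 0.05, adjusted p = 0.00978). Rrm2b, the p53-inducible small subunit that can replace Rrm2, showed differences of −0.30 to 0.24 and was called in no tissue. Over all tissues 2 of 39 members were higher in every tissue and 1, Rpa1, lower in every tissue, against 7.28% and 12.9% of the 14532 genes tested in every tissue.

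**Figure D3:**
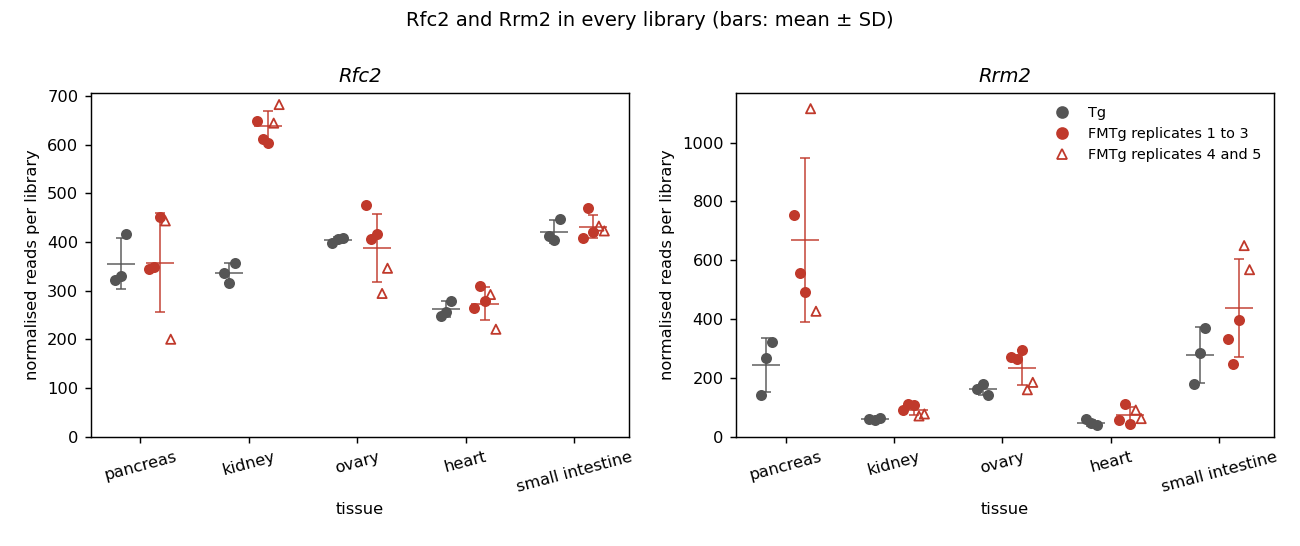
Normalised reads of Rfc2 (left) and Rrm2 (right) in all 40 libraries by tissue, with the mean and SD of the 3 Tg and the 5 FMTg libraries and open triangles for FMTg replicates 4 and 5. Rfc2 is separated by genotype in the kidney only, where Tg libraries lie at 316 to 357 and FMTg libraries at 604 to 683, while Rrm2 is higher on average in FMTg in every panel position and separated in pancreas and kidney.

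In the pancreas most members had a lower mean in FMTg than in Tg, but most of the difference rested on the libraries that stood apart. With all libraries 35 of 39 members had a lower FMTg mean and the median log2 difference was −0.57, against −0.05 for all genes. Without FMTg replicates 4 and 5 it was 21 of 39, with a median of −0.04, against 0.06 for all genes. In that fit 13 members lay above the median of all genes, against 5 with all libraries. Without replicate 4 alone 10 members had a higher FMTg mean, and without replicate 5 alone 7 did, against 4 with all libraries. The median of the members relative to the Tg mean was −2.0 in FMTg replicate 4, −0.75 in replicate 5 and −0.04 to −0.06 in FMTg replicates 1 to 3.

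FMTg Pancreas replicate 4 was not evenly low. It had no read for 15 members (Rfc3, Rfc4, Rfc5, Cdc45, Gins1, Gins2, Gins3, Cdc6, Cdt1, Mcm3, Orc1, Orc6, Pole2, Prim1 and Rpa3), where 1 read stands for 6.16 normalised reads and a count of 0 allows up to 18.5, for counting error only. Replicate 5 had no read for Gins2, Gins3 and Orc1. In the same library replicate 4 Rrm2 was the highest of the 8 libraries at 1115, from 181 reads, and Pold3 was at 493. Mcm5 was at 159.6, 234, 224, 12.3 and 189 in the FMTg libraries and 226, 245 and 276 in the Tg libraries, so replicate 4 alone was far below. Mitosis genes were at −3.18 in replicate 4 and −1.32 in replicate 5, and neutrophil markers at −6.56 and −3.01. Their part in the result was not tested.

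Members whose pancreas groups did not overlap, apart from Rrm2, were Mcm2 and Pcna, both lower in FMTg (4.68% of all genes were above and 5.05% below without overlap). For Pcna the Tg values were 546, 516 and 577 and the FMTg values 432, 493, 453, 197 and 347. For Mcm2 they were 281, 325 and 332 and 258, 236, 271, 222 and 160.4. The 3 FMTg replicates that did not stand apart were lower by less for both, and without replicates 4 and 5 the differences were −0.25 ± 0.12 for Pcna (adjusted p = 0.381) and −0.29 ± 0.14 for Mcm2 (adjusted p = 0.401). Ccnd1, the G1 cyclin D1, was the single gene called among the E2F and G1/S regulators in the pancreas (1.87 ± 0.32, adjusted p = 0.0457) and was chosen after its value was seen. Of the 44 other replication genes 7 had a higher and 37 a lower FMTg mean in the pancreas (median −0.40), and none was called.

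**Figure D4:**
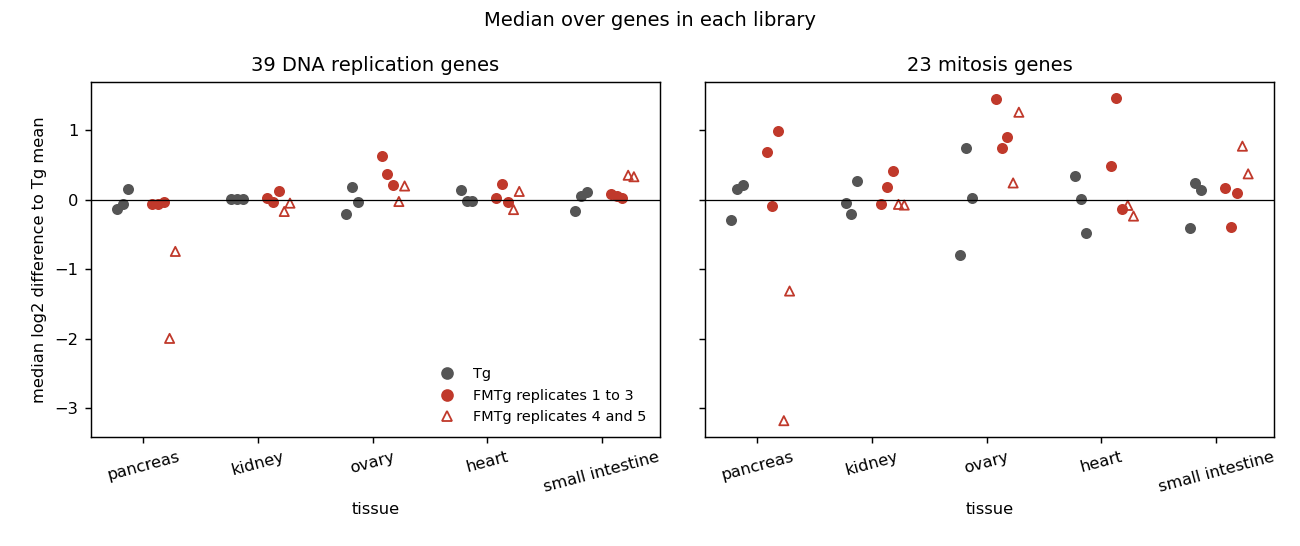
Median log2 difference from the Tg mean of the tissue over the 39 replication genes (left) and the 23 mitosis genes (right) in each of the 40 libraries, with open triangles for FMTg replicates 4 and 5. The 2 triangles of the pancreas lie at −2.0 and −0.75 for the replication genes, and the FMTg ovary libraries lie mostly above 0.

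In the ovary 35 of 39 members had a higher FMTg mean, with a median of 0.29, against −0.02 for all genes, and none was called. The direction did not rest on replicates 4 and 5: without them 38 of 39 were higher, with a median of 0.38. Library medians were −0.21, 0.18 and −0.04 in Tg replicates 1 to 3 and 0.63, 0.37, 0.21, −0.03 and 0.20 in FMTg replicates 1 to 5, so the groups overlapped. Without Tg replicate 1, the library with acinar RNA, 31 members were higher and the median was 0.19.

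Rfc1 had the smallest p of the members in the ovary and was chosen after its value was seen. Its values were 602, 677 and 548 in Tg and 1136, 969, 803, 941 and 1212 in FMTg, without overlap (0.72 ± 0.16, adjusted p = 0.372). Mcm2 was at 359, 513 and 382 in Tg and 722, 580.3, 476, 610.1 and 724 in FMTg, and 4 of 5 FMTg libraries were above every Tg library (0.57 ± 0.19, adjusted p = 0.588). Pold3, the accessory subunit of polymerase delta, was at 354, 487 and 468 and 717, 508, 522, 555 and 663, without overlap (0.44 ± 0.17, adjusted p = 0.720). Lig1 was at 147, 287 and 175 and 479, 455, 346, 174 and 293, with 4 of 5 FMTg libraries above the Tg libraries (0.74 ± 0.35, adjusted p = 0.806). The other ovary members with an unadjusted p below 0.05 were Mcm4, Mcm5 and Pole2 (0.46, 0.55 and 0.69). Of all genes 3.43% were above and 2.38% below without overlap, and 2 and 0 of the 39 members were.

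Other lists moved in the ovary libraries too. All 23 mitosis genes had a higher FMTg mean (median 0.81), and the proliferation marker Mki67 differed by 2.31 ± 0.49 (adjusted p = 0.326). In pancreas, kidney, heart and small intestine Mki67 differed by 0.27, 0.46, 0.53 and 0.33. For Top2a, another gene outside the members, the ovary difference was 1.15. In pancreas, kidney, heart and small intestine it was −0.06, −0.03, 0.56 and 0.05. Of the 44 other replication genes 35 were higher, and those with the smallest p over all tissues were Dnmt1, the maintenance DNA methyltransferase (1.08 ± 0.25, adjusted p = 0.393), Usp1, a deubiquitinase that acts on Pcna (0.63 ± 0.18, adjusted p = 0.494), and Chaf1a, a histone chaperone at the fork (0.88 ± 0.27, adjusted p = 0.537), all in the ovary. All 8 granulosa markers were higher (median 0.51), 7 of 8 luteal and theca markers lower (−0.84), all 8 adipocyte markers higher (2.25) and all 9 tested acinar markers lower (−3.78). Their part in the result was not tested.

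In the kidney 17 members had a higher and 22 a lower FMTg mean (median −0.06, against −0.05 for all genes). Gins2 and Mcm4 were lower without overlap, at −0.38 and −0.18, and 4.17% of all genes were above and 4.56% below without overlap. With reads scaled to the library total the members with a higher mean were 9. In the heart 21 were higher and 18 lower (median 0.06). Mcm10 was at 19.7, 7.08 and 13.2 in the Tg heart and 30.1, 38.7, 21.7, 78.0 and 18.9 in the FMTg heart (1.10 ± 0.47, adjusted p = 0.760), where 1 FMTg library lay within the Tg range and replicate 4 was highest. Rpa1 was at 885, 1035 and 997 in Tg and 1057, 676, 883, 547 and 676 in FMTg (−0.37 ± 0.21, adjusted p = 0.760), with the FMTg libraries on both sides of the Tg range. Rfc5 was the single heart member above without overlap, at 0.11, and none was below (3.42% and 3.49% of all genes).

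In the small intestine 35 members had a higher FMTg mean (median 0.17, against −0.05 for all genes), and none was called. This too leaned on replicates 4 and 5, whose medians were 0.35 and 0.33, against 0.02 to 0.08 in FMTg replicates 1 to 3. Other lists moved in the same libraries: the median of 8 intestinal stem and crypt markers was 0.69 and 0.60 in replicates 4 and 5, against −0.0074 to 0.09 in FMTg replicates 1 to 3, and that of the 23 mitosis genes was 0.77 and 0.37, against −0.39 to 0.17. Over all libraries 5 of 8 crypt markers (median 0.25) and 21 of 23 mitosis genes (0.22) had a higher FMTg mean, and all 5 B cell markers had a lower one (−1.95). Their part in the result was not tested. Among the members, Mcm5 held 374, 436 and 488 normalised reads in Tg and 512, 480.2, 477, 852 and 987 in FMTg, with replicates 4 and 5 the highest. Without replicates 4 and 5, which are male there, 26 members were higher and the median was 0.05. Mcm7 and Pold3 were above without overlap, at 0.36 and 0.17, and none was below (1.69% and 1.19% of all genes).

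Within a tissue the members varied together from library to library more than other genes did with them. The correlation of a member with the mean of the other 38 had a median of 0.89 in the pancreas, 0.70 in the small intestine, 0.69 in the ovary, 0.44 in the kidney and 0.46 in the heart (n = 8 libraries each), where other genes correlated with that mean at a median of 0.35, −0.24, 0.08, 0.22 and 0.19. Each value was first taken as its deviation from the mean of its genotype group in the tissue. Libraries still differed in depth, so the correlations are a description. Without replicates 4 and 5 the medians were 0.44 in the pancreas and 0.86 in the ovary (n = 6). With all 8 libraries the median correlation between pairs of members was 0.61 in the pancreas, 0.46 in the ovary and 0.38 in the small intestine. It was only 0.12 in the heart and 0.10 in the kidney. With the mean of the others, 33 of 39 members correlated positively in the pancreas, against 60.7% of other genes. In the kidney 27 did, against 58.8%. The lowest values were those of Pola2 in the pancreas (−0.74) and Pcna in the kidney (−0.87). Rrm2 was at −0.49 in the pancreas and 0.92 in the small intestine, and Rfc2 was at −0.56 in the kidney, where 5 members were lower still.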

How the data were processed

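RNA was sequenced in 40 libraries. STAR 2.6.0b, DESeq2 and GRCm38 are named in the submitters' processing notes; the counter, strand setting and gene filter are not given in the sources used here. The deposited values are log2 variance-stabilised values of 18024 genes over all libraries, and a gene without reads has the lowest value, 1.65. Inverting the transformation gave whole reads for 100% of values (tolerance 0.01), which were divided by each library's size factor for the normalised reads printed. Such values carry counting error that grows as reads fall. Gene positions are those of GENCODE M21.

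Genotypes were compared in each tissue on the log2 values with limma 3.58.1 (R 4.3.3, mean-variance trend), for genes whose tissue mean was at least 1 above the lowest value, with Benjamini-Hochberg adjustment over all genes and calls at an adjusted p below 0.05. Tissues were compared in the 15 Tg libraries. A model of all libraries had library weights and a random effect of the mouse (statmod 1.5.0, correlation 0.263). In simulated reads its F test called more genes than its adjusted p states. Those reads were drawn without a shared effect of the mouse, so their setting differed from the data. Exact permutation tests were two-sided over 56 divisions. Labels name the mice but not separate cohorts.

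The members and lists were chosen with earlier results of these data known. Genes named with library values were those called between genotypes and, in each role, the gene with the smallest genotype p and the gene with the widest range of Tg tissue means. The rule also named Mki67, Top2a, Cdkn1a, Mdm2, Rrm2b and the 3 other replication genes with the smallest p, and any further gene was chosen after its values were seen. The same Tg mouse gave each Tg replicate number in all tissues, per the labels. Deviations from the Tg mean of a tissue correlated between tissues of the same mouse at −0.27 to 0.44 (median 0.06, 30 pairs). They were taken over all genes with a mean at least 3 above the lowest value, not over the members alone. No 2 libraries were duplicates. Alternatives were other filters, no trend, library weights, voom, reads scaled to the library total with a pseudocount of 1, size factors within the tissue, blocks, and libraries or mice left out.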

Additional observations from a re-analysis of the deposited data

Results flagged for a closer look

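In the FMTg pancreas 17 of the 39 members had 1 library far from the other 4. FMTg replicate 4 was far below the others for 15 of them, with 0 normalised reads for Rfc3, Rfc4, Rfc5, Cdc45, Gins1, Cdc6, Cdt1, Mcm3, Orc6, Pole2 and Prim1, 12.3 for Mcm5 and Prim2 (2 reads each), 61.6 for Rrm1 (10 reads) and 49.3 for Tyms (8 reads). FMTg replicate 5 was far below the others for Pola1, at 85.9 normalised reads, and Pole, at 8.59. Over all tissues 27 of 195 groups of 5 FMTg libraries held such a library (13.8%), and the 2 pancreas libraries account for 17 of them. The cutoff is met by about 1 in 20 independent groups of normal values. These groups share libraries and are not independent, and the rate over all genes was not computed, so no excess over chance is read from the count. Genes with reads at equal depth were also fewest in these 2 libraries, and the part of that in the low values was not tested.

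The genotype difference of Rfc2 differed between tissues, with an adjusted p of 6.15e-04 in the F test of the model of all libraries. The FMTg minus Tg difference was 0.91 in the kidney and lay between −0.08 (ovary) and 0.06 (heart) in the other 4 tissues. The adjusted p over the alternatives ran from 4.04e-04 to 0.0750, and the call was lost without library weights (0.0737) and without Tg replicate 2 (0.0750). In simulated reads, drawn without a shared effect of the mouse, the F test called more genes than its adjusted p states.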

How the results depend on the processing

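The call of Rfc2 in the kidney kept its direction and its side of the threshold under every alternative run. Members called were 1 in the pancreas (Rrm2) and 2 in the kidney (Rfc2 and Rrm2) with library weights. Those weights called 2.82% of all genes higher and 0.898% lower in the pancreas, and 1.25% and 0.123% in the kidney. The mean effect over tissues called 1 member with no mouse block, which treats tissues of a mouse as independent. It called 2 without FMTg replicates 4 and 5. The share of all genes called in these fits is not given. The difference between tissues called 0 members with no library weights, and 0 to 1 when Tg mice were left out. Members with a higher FMTg mean in the pancreas were 11 with library weights and 18 without FMTg replicates 4 and 5, and 3 to 10 when single libraries were left out. They were 9 in the kidney with reads scaled to the library total (total scaling) and 19 in the small intestine with library weights. The median difference changed sign in the kidney with library weights (0.041) and without FMTg replicates 4 and 5 (0.0019), in the heart with total scaling (−0.016) and in leave-one-out fits (−0.025 to 0.10; −0.025 without Tg replicate 2 and −0.0017 without Tg replicate 3), and in the small intestine with library weights (−0.016). Rrm2 in the small intestine was −0.038 with library weights. For single tissues of Tg mice, members higher in the pancreas were 4 with no filter, 4 with voom, 0 with total scaling and 1 to 8 when a mouse was left out. Members lower in the pancreas were 32 with total scaling (76.5% of all genes). Members lower in the kidney were 12 with total scaling (20.4% of all genes) and 16 to 26 with a mouse left out. Members higher in the ovary were 36 with total scaling (55.5% of all genes) and 7 to 20 with a mouse left out. The 1 member lower in the ovary and the 1 lower in the small intestine were 0 with total scaling, and 0 and 0 to 1 with a mouse left out. Counts with a mouse left out come from fewer libraries and are given without the share of all genes called. The cause of these moves was not tested.

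With the replicate block of the Tg mice, the pancreas had 5 members higher and 6 lower, and every other tissue contrast had the same count as without it. Between genotypes the replicate number is shared by different mice, and FMTg replicates 4 and 5 have no Tg partner. In that block fit 18 members had a higher FMTg mean in the pancreas and the kidney median was 0.0019; calls were 1 in the kidney and 0 elsewhere. Same-numbered Tg and FMTg libraries of a tissue correlated at −0.62 to 0.61 (median −0.05, 15 pairs). Depth limits the pancreas most, where FMTg replicate 4 allows up to 18.5 normalised reads at a count of 0. With 3 Tg mice a tissue, a p that misses the threshold does not show that a gene did not differ.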
